A study of Mus musculus with 21 samples.

Results

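T-only distal peaks between genes were called binding sites of T (brachyury) that carried no Foxa2 peak and lay away from the promoters and bodies of protein-coding genes. They came from 1 T ChIP-seq library of NotoPdiff cultures, which are notochord progenitor-like cells made from mouse embryonic stem cells. A T peak was chosen by 3 conditions. It shared no base with a Foxa2 peak of the same culture, its summit lay more than 5000 bp from every protein-coding 5' end, and the summit lay outside every protein-coding gene body (GENCODE vM21, mm10). Of 6875 T peaks, 5484 shared no base with any of the 22684 Foxa2 peaks. Of these, 881 lay within 5000 bp of a 5' end or on the mitochondrial chromosome, 2142 lay farther away but inside a gene, and 2461 met the rule. The members were 35.8% of all T peaks and 44.9% of the T-only peaks (95% Wilson interval 43.6 to 46.2%). Because peak calls and positions selected the members, their binding and their distance are given as descriptions, without a test.

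The cells carried a doxycycline-inducible Foxa2-IRES-EGFP cassette at Rosa26, a T BAC that drives H2B-mCherry and the transactivator, and a Noto BAC that drives H2B-mTurquoise, all in the F1G4 line (C57BL/6N x SV129). NotoPdiff cultures received the Wnt agonist CHIR99021 and, from day 2 to day 4, doxycycline at 1 ng/ml. Foxa2 from the cassette therefore depended on the T construct, while the cells' own Foxa2 gene could add to it: Foxa2 stood at 12.5 FPKM in NMPdiff and 1.22 in MPdiff, without doxycycline. Every T and Foxa2 peak came from whole cultures, not from sorted cells. RNA was measured in sorted cells: T+/Noto+ NotoPdiff cells with doxycycline, and T+/Noto- MPdiff (mesodermal progenitor) and NMPdiff (neuromesodermal progenitor) cells of the same line without it, the NMPdiff cells with shorter CHIR99021 treatment. Embryonic NotoPs and MPs (notochord and paraxial mesoderm progenitors) and trunk notochord cells were sorted at E8.5 and E9.5 from embryos of a reporter line for T, Noto and Foxa2. NotoPs were sorted as T+/Noto+/Foxa2+ and MPs as T+/Noto-/Foxa2-, so their Noto and Foxa2 levels follow from the sorting. Each condition had 1 library, so no comparison has a replicate check, and every interval below covers counting error only. The NotoPdiff library held 375 FPKM of T, 22.5 of Noto, 30.2 of Shh and 28.5 of Chrd, against 25.8, 0, 0 and 0.186 in MPdiff. NMPdiff held 406, 0.515, 0 and 1.05. The cells were sorted by T and Noto reporters, so Noto could not check the label, and T was no lower in NMPdiff. Shh and Chrd were not sorted on, and they went with the label. Endoderm genes also summed to 726 FPKM in NotoPdiff, with 10 of 13 at 1 FPKM or more, against 58.9 in MPdiff and 326 in NMPdiff.

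T is the founding member of the T-box transcription factors. It binds a short site, alone or as facing pairs, and is required for posterior mesoderm and for the notochord. Foxa2 is a forkhead factor that can bind closed chromatin and is needed for the node, notochord, floor plate and definitive endoderm. Sites far from promoters often lie in enhancers, which can act on a gene over long distances and past other genes, so the nearest gene is a label of position and not a proven target.

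The sequences below are the reference genome (GRCm38.p6, the build of mm10, plus strand) 50 bp on each side of the summit. Each name gives the pair of flanking genes. The first 10 belong to the members with the highest fold enrichment and are shown because 7 of them fell into groups of near copies, 4 in sequence group 2 and 3 in sequence group 3, which are described further on. Capitals mark the T site GGTGTGA, facing T sites TNNCACNNNNGTGNNA, the 8 words of 7 letters in largest excess in ungrouped members over neighbouring windows, which are given with their shares further on, and, in a grouped member, the 4 most frequent words of its group, each on either strand.
Dhx35-Gm826 (chr2:159913684-159913784, group 3): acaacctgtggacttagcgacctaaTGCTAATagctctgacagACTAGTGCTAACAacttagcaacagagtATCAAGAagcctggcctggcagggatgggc
Fbxw4-Fgf8 (chr19:45723003-45723103): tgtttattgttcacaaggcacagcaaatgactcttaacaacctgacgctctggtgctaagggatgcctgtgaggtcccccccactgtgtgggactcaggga
Sphkap-Pid1 (chr1:83989815-83989915, group 2): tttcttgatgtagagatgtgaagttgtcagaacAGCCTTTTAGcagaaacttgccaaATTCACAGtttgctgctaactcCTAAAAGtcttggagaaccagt
Ces2g-Ces2h (chr8:104982418-104982518, group 3): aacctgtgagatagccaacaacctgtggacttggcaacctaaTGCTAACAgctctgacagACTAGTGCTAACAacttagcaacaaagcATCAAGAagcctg
Slc8a1-Pkdcc (chr17:82494598-82494698, group 2): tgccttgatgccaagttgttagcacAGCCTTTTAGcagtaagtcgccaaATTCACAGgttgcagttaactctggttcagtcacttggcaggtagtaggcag
Adh1-Adh6a (chr3:138304782-138304882, group 3): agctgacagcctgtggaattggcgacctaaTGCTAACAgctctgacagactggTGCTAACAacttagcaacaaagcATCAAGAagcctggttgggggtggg
Sel1l-Flrt2 (chr12:94831441-94831541): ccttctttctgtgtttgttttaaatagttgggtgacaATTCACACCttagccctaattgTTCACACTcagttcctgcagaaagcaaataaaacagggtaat
Clec5a-Tas2r138 (chr6:40598613-40598713, group 2): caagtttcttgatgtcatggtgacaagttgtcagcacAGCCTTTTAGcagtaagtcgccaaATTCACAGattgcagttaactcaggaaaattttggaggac
Tlr5-Disp1 (chr1:182991289-182991389): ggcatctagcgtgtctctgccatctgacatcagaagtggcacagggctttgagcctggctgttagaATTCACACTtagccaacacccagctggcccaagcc
Akr1e1-Klf6 (chr13:5440521-5440621, group 2): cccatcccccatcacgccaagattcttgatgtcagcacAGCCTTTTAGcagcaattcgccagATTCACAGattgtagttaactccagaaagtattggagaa
The next 3 are the stronger member of each of the 3 most enriched close pairs.
Agtr1b-Tbl1xr1 (chr3:21168792-21168892, group 2): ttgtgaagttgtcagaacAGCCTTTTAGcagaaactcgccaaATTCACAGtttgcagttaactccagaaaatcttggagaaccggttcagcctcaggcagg
Ankrd50-Fat4 (chr3:38654054-38654154): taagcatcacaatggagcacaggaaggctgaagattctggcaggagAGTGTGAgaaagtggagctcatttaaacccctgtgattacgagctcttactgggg
Casp12-Pdgfd (chr9:5407942-5408042, group 2): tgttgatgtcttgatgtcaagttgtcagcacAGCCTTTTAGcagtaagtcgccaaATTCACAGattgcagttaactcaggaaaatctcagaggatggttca
The following 6 are the strongest members beside genes of the notochord, presomitic and caudal progenitor lists.
Snap91-Ripply2 (chr9:86980223-86980323): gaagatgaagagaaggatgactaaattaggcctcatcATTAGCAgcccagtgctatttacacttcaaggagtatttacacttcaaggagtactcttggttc
Cobl-Pom121l12 (chr11:12490663-12490763, group 2): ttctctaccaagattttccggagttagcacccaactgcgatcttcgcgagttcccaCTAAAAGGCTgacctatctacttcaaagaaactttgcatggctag
Osr1-Nt5c1b (chr12:10128269-10128369): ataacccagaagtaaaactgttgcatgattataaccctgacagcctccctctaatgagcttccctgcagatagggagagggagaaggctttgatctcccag
Kcnj2-Sox9 (chr11:112002293-112002393): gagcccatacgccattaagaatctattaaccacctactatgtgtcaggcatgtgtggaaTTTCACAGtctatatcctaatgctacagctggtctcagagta
Ermard-Dll1 (chr17:15226710-15226810): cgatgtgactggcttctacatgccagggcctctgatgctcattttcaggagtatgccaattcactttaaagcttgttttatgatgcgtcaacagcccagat
Foxa2-Sstr4 (chr2:148060379-148060479): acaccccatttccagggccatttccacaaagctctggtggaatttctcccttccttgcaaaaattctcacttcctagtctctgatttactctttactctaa
The last 3 are the members around which the 3 largest sequence groups formed.
Map3k7-Bach2 (chr4:32024141-32024241, group 1): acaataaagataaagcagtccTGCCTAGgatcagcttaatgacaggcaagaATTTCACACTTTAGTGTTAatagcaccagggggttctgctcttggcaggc
Trpc6-Pgr (chr9:8882881-8882981, group 2): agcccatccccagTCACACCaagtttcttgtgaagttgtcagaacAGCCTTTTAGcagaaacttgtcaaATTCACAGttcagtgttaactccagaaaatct
Il5-Irf1 (chr11:53749756-53749856, group 3): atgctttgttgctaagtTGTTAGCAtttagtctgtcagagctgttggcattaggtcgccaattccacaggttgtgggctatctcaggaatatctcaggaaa
In the AGCCTTTTAG block and the ATTCACAG block of the Sphkap-Pid1, Slc8a1-Pkdcc, Clec5a-Tas2r138 and Akr1e1-Klf6 windows, and in the ACTAGTGCTAACA block of the Dhx35-Gm826 and Ces2g-Ces2h windows, the same letters recur although these loci are on different chromosomes. The Fbxw4-Fgf8, Ermard-Dll1, Foxa2-Sstr4 and Osr1-Nt5c1b windows hold none of the marked words.

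The members lay far from promoters, and their density was lower at larger distances. The median distance to the nearest protein-coding 5' end was 77.8 kb (95% interval 70.3 to 86.3 kb), over a range of 5.03 to 2489 kb. T peaks between genes that overlapped a Foxa2 peak had a median of 108 kb (n = 638), and Foxa2-only peaks between genes had a median of 109 kb (n = 10180). The members were thus the closer to genes of these classes, with intervals that did not overlap (97.2 to 121 kb and 106 to 113 kb for the others). At 5 to 10 kb from a 5' end there were 2.30 members per Mb of sequence that could hold one, and at 10 to 50 kb 2.16. Beyond 500 kb the density was 0.819 per Mb, over 271 Mb. The near class (5 to 50 kb) therefore held 2.66 times the density of the far class (2.30 to 3.08), against 2.03 times (1.53 to 2.70) for shared peaks and 1.57 times (1.47 to 1.67) for Foxa2-only peaks. The interval of the members' ratio overlapped that of the shared peaks and not that of the Foxa2-only peaks. Distance did not go with enrichment: the median fold enrichment was 7.83 at 5 to 10 kb and 8.16 beyond 500 kb. Members lay upstream of their nearest 5' end in 62.0% of cases (60.1 to 63.9%), and Foxa2-only peaks in 64.1%.

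**Figure D1:**
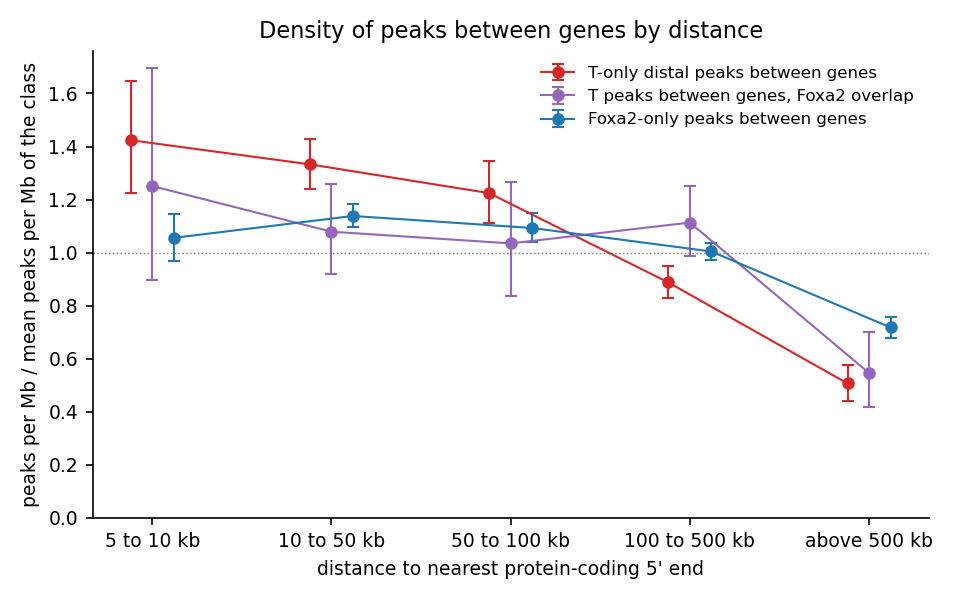
Peaks per Mb of eligible sequence between genes, divided by the mean density of the class (vertical axis, 1 is the class mean), in 5 classes of distance to the nearest protein-coding 5' end; points are members (red), shared T peaks (purple) and Foxa2-only peaks (blue), and bars are 95% exact Poisson intervals. The red points start highest, at 2.30 members per Mb at 5 to 10 kb, and drop to 0.819 per Mb beyond 500 kb, while the blue points are flatter (7.06 and 4.80 per Mb).

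At the edges of the rule, the 3 members nearest to a 5' end lay 5028, 5033 and 5046 bp away, and the 3 T-only peaks just outside lay 4997, 4996 and 4995 bp away. The smallest gaps between a member and a Foxa2 peak were 5, 28 and 37 bp, and the smallest overlaps that removed a peak were 23, 43 and 49 bp. A member's absence of overlap therefore did not mean that Foxa2 was far away. A Foxa2 peak lay within 10 kb of 526 members, or 21.4% (19.8 to 23.0%), and within 50 kb of 61.6% (59.6 to 63.5%). The median gap was 34.0 kb. For T-only distal peaks inside genes the share within 10 kb was 25.2% (23.4 to 27.04%), which is above the members' interval.

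Members were spread over 1633 of 19057 intervals between protein-coding genes, and a small number of gene-poor intervals held many. Of the intervals with a member, 1160 held 1, and 33 held 5 or more, which made up 215 members. The 1832 kb between Ttll7, a tubulin-modifying enzyme, and Adgrl2, a latrophilin receptor, held 11 members, the most of any interval. The interval of Dhx35 and Gm826 held 10, and those of Casp12 and Pdgfd, of Mctp2 and Rgma, and of Sall1 and Tox3 held 9 each. Long intervals can hold more peaks: per Mb of interval, the pair Bbs9 and Bmper (14.9), the pair Bcl2l11 and Spdye4c (14.0) and the pair Casp12 and Pdgfd (11.3) were far denser than Ttll7 and Adgrl2 (6.01). Bmper encodes a regulator of Bmp signalling, and the 5 members beside it lay within 133 kb with a highest fold of 23.6. Rspo3, a secreted agonist of Wnt signalling, had 6 members between it and Cenpw, the strongest at fold 25.1. By chromosome, density ran from 0.595 per Mb on X (68 members) to 2.42 on chromosome 11 (134 members), and the Y chromosome held 0 members in 83.7 Mb. The study gives the cells as male, so they carried a single X, and it calls the Y chromosome repetitive. Only uniquely mapped reads were kept. The part of copy number and mapping in the X and Y values was not tested.

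Close clusters were few, and none went beyond a pair. Within 10 kb, 73 pairs formed from 146 members, or 5.93% (5.07 to 6.94%). Summits paired at 5 kb in 2.76% of members, and at 25 kb 14.2% were grouped, with 14 clusters of 3 and 1 of 4. All clusters at 10 kb had 2 members, so the order among them is by summed fold enrichment. The 5 highest pairs lay between Agtr1b and Tbl1xr1 (summits 5668 bp apart, folds 10.5 and 20.7), Ankrd50 and Fat4 (5337 bp, 10.9 and 18.99), Casp12 and Pdgfd (4536 bp, 20.8 and 5.21), Plpp3 and Gm12728 (8583 bp, 18.3 and 7.71) and Slc1a4 and Sertad2 (5643 bp, 11.4 and 14.4). The Casp12 and Plpp3 pairs joined a strong and a weak peak, while both peaks were strong beside Slc1a4. Clustered members were not the stronger ones, with a median fold of 7.09 (6.67 to 7.83) against 7.97 (7.74 to 8.10) for members alone. Among the genes that flank the 5 highest pairs, Tbl1xr1 (a corepressor subunit) had 17.1 FPKM in NotoPdiff and 17.7 in MPdiff. Fat4 (a giant cadherin) had 0.979 and 0.518, and Plpp3 (a lipid phosphatase) had 14.7 and 6.76. The median member had its nearest other member 221 kb away (198 to 240 kb), and 304 members had none within 1000 kb.

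The summit windows were rich in T sites, of which the facing pair was the more selective. The T site GGTGTGA lay within 50 bp of the summit in 243 members, or 9.87% (8.76 to 11.1%), against 1.75% and 1.63% of windows 10000 bp to the left and right. Facing T sites TNNCACNNNNGTGNNA occurred in 206 members, or 8.37% (7.34 to 9.53%), against 0.0813% and 0.0406%. Either form was present in 16.7% (15.3 to 18.3%), so most members held neither exact string. T-only peaks inside genes had nearly the members' shares (9.80% and 8.45%), shared T peaks had 7.05% and 4.23%, and Foxa2-only peaks had 1.19% and 0.128%. The interval of facing sites in shared peaks (2.92 to 6.10%) lay below that of the members, while the intervals of the single site overlapped. Single T sites also sat at the summit itself: 122 sites fell in the 50 bp to its left and 142 in the 50 bp to its right, against 10 to 17 sites in each 50 bp bin more than 300 bp away.

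The share with facing T sites was larger among stronger members, and that of single T sites had no such order. Over 4 bins of 614 to 617 members, from lowest to highest fold enrichment, the share with facing sites was 3.24%, 7.32%, 10.9% and 12.0%. The share with GGTGTGA was 9.89%, 6.83%, 12.7% and 10.1% in the same order. The intervals of the lowest and highest bins did not overlap for facing sites (2.11 to 4.95% and 9.69 to 14.8%). Forkhead sites (TGTTTAC or TGTTTGC) were less frequent than in Foxa2-bound peaks but still above neighbouring sequence. They were found in 11.5% of members (10.3 to 12.8%), 21.6% of shared T peaks, 16.4% of Foxa2-only peaks and 3.58% and 3.33% of the windows 10000 bp away. An excess over neighbouring windows was not particular to forkhead sites. The E-box CAGCTG was found in 7.76% of members against 3.66% and 3.54%, and the Zic site CAGCAGG in 5.77% against 1.95% and 2.15%. The Sox site ACAATGG was level, at 1.95% against 1.87% on either side. A forkhead site and GGTGTGA in the same window occurred in 24 members, or 0.975%.

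**Figure D2:**
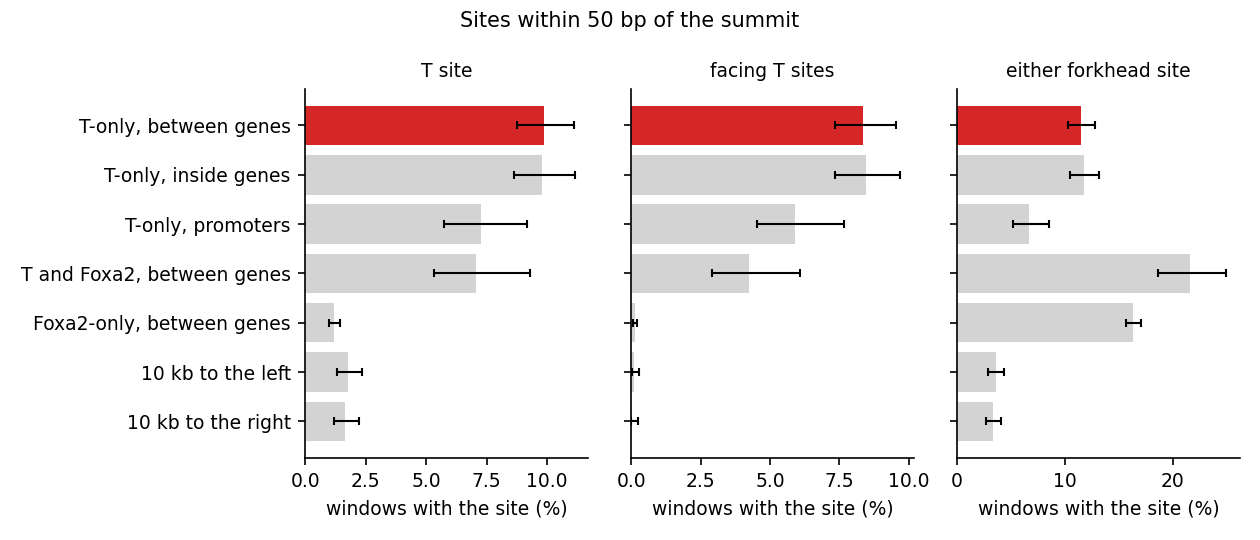
Share of summit windows (50 bp on each side) (horizontal axes, %, separate scale per panel) with GGTGTGA, with facing T sites or with a forkhead site, for the members (red), other peak classes and windows 10000 bp to each side of the members; bars start at 0 and error bars are 95% Wilson intervals. The members reach 9.87%, 8.37% and 11.5%, and the neighbouring windows stay at or below 3.58%.

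Of the 8 words of 7 letters found in the largest excess of members in no sequence group over the mean of their neighbouring windows, most spelled the T site in several registers. They were picked by their counts in these windows, so their shares are descriptive. GTGTGAA led with 14.8% of 2036 ungrouped members against 1.62% and 1.52% of neighbouring windows, followed by TGTGAAA at 12.9%. GGTGTGA itself was found in 8.99%, with AGTGTGA found in 8.74%, CTGTGAA found in 8.45% and ATTCACA found in 8.15%. All of these overlap the T site or each other on one or the other strand and are not independent. The remaining words, ATTAGCA in 9.04% of ungrouped members and AATTAGC in 6.78% of them, overlap each other but do not contain the T site. ATTAGCA was also found in 8.26% of T-only peaks inside genes (7.17 to 9.51%), close to the ungrouped members (7.87 to 10.4%), in 3.61% of shared T peaks (2.41 to 5.35%) and in 1.36% of Foxa2-only peaks.

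Many of the strongest members were copies of a repeated sequence. Alignment of the 301 bp summit windows to each other placed 425 members, or 17.3% (15.8 to 18.8%), in 6 groups of at least 10 that share a long sequence with a central member. Groups 1, 2 and 3 held 165, 144 and 73 members on 20, 20 and 19 chromosomes, at a median identity of 81.0%, 79.3% and 81.1% to the centre over 264, 271 and 278 aligned bp. Groups 4, 5 and 6 held 18, 13 and 12 members. The same grouping placed 344 and 356 of the 2461 windows 10000 bp to the left and right in groups of at least 10. The share in groups was therefore not by itself particular to the members. The grouping was chosen after the data were seen, and it is a description of these windows. Grouped members made up 67 of the 100 members with the highest fold and 7 of the top 10. Their median fold was 10.5 (9.79 to 10.9) against 7.45 (7.25 to 7.57) for the 2036 others. The high values were those of group 2, with a median of 14.1 (11.8 to 16.2), and group 3, with 14.6 (11.5 to 18.9), which supplied 40 and 26 of the top 100. Group 1 had a median of 8.69 and 1 member in the top 100.

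**Figure D3:**
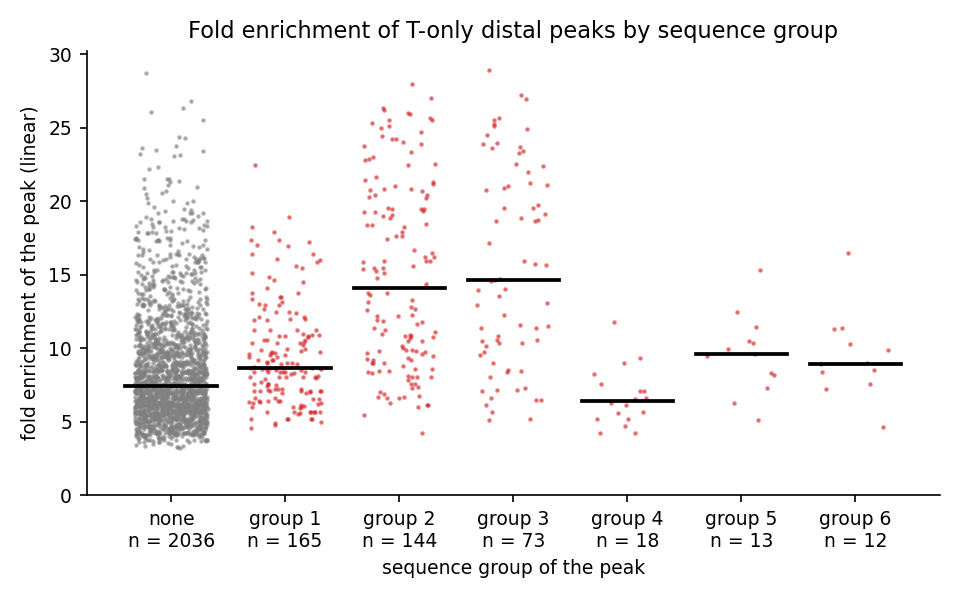
Fold enrichment of each member over local background (vertical axis, linear, as deposited), by sequence group; points are members, spread sideways at random within a column, and black lines are medians. Groups 2 and 3 lie highest, with medians of 14.1 and 14.6, against 7.45 for members in no group.

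The groups differed in the sites they held. In group 1, 33.3% of members held GGTGTGA and 35.2% held facing T sites, and 78.8% held GTGTGAA. In group 2 only 4 of 144 held GGTGTGA (2.78%) and 0 held facing sites, which allows a share of up to 2.60% (Wilson). In group 3 both counts were 0 of 73, which allows up to 5.00%. Most members of both groups thus lacked the exact T site, yet each shared other words, picked by their counts in the group. CCTTTTA was found in 84.0% of group 2 against 2.55% of ungrouped members, and ACTAGTG in 58.9% of group 3 against 0.982%. GCTAACA was found in 57.5% of group 3. CTGTGAA, which overlaps the T site and was found in 8.45% of ungrouped members, was in 55.6% of group 2. Of the 13 members of group 5, 11 held facing T sites (84.6%). Summits took similar places in the aligned windows. Each window was centred on its summit, so a long alignment already favoured this, and the counts are descriptive only. Summits fell within 25 bp of the group's median position in 115 of 164 members aligned to the centre of group 1, 137 of 143 of group 2 and 60 of 72 of group 3.

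Most genomic copies of these sequences held no T summit. The centre of group 1 had 1131 copies in the genome, of which 267 held a T summit (23.6%, 21.2 to 26.2%). Group 2 had 797 copies, 189 of them with a T summit (23.7%), and group 3 had 392, with 126 (32.1%). Members made up 153, 149 and 89 of the copies with a T summit, and members carry no Foxa2 peak by the rule. Foxa2 summits lay in 14, 1 and 1 of all copies. Reads had been kept only where they mapped to 1 place in the genome, and how many copies could be mapped in this way was not tested. A centre sequence was found in 6.16% of T-only peaks inside genes (5.22 to 7.26%), 4.77% of T-only promoter peaks, 4.08% of shared T peaks (2.80 to 5.90%) and 0.0393% of Foxa2-only peaks between genes. In the windows 10000 bp from the members it was found in 1 and 0 of 2461. Those windows also form repeat groups among themselves, with 344 and 356 windows in groups of at least 10, but their largest groups held 77 and 65.

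The annotation of the repeats did not match the groups in a simple way. The genome's soft masking, which marks known repeats, covered the summit of 85.5% of group 1, 34.0% of group 2 and 5.48% of group 3. Over all members it covered 14.2% of summits (12.9 to 15.6%), against 34.1% and 32.3% in windows 10000 bp away and 47.6% in Foxa2-only peaks. Members outside the groups were masked in 6.73%. A Foxa2 peak lay within 10 kb of 11.3% of grouped and 23.5% of ungrouped members. The GC content of the summit windows was 45.9% in members, 42.8% in both sets of neighbouring windows and 38.9% in Foxa2-only peaks.

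The member with the highest fold enrichment, 29.0, lay at chr2:159913397-159914048 between Dhx35 and Gm826, 420 kb from the nearest 5' end, and belonged to group 3. The second, at 28.7, lay at chr19:45722721-45723357, 19.9 kb downstream of the 5' end of Fgf8, a growth factor of the tail bud, and was in no group. Fgf8 had 17.0 FPKM in NotoPdiff, 17.6 in MPdiff and 36.6 in NMPdiff, and 54.4 and 20.5 in E9.5 NotoPs and MPs. The others of the top 10 lay beside Sphkap and Pid1, Ces2g and Ces2h, Slc8a1 and Pkdcc, Adh1 and Adh6a, Sel1l and Flrt2, Clec5a and Tas2r138, Tlr5 and Disp1, and Akr1e1 and Klf6, with folds of 26.2 to 28.0. None of these genes passed a 3-fold difference between NotoPdiff and MPdiff; with 1.76% of all protein-coding genes higher and 0.461% lower, a count of 0 among so few genes is no result about them. Gm826, Ces2g, Ces2h, Adh6a and Tas2r138 were listed at 0 FPKM in every library. Disp1, which releases Hedgehog ligands from the cells that make them, had 15.6 FPKM in NotoPdiff and 14.7 in MPdiff. Pid1 had 11.4 and 8.87, and Klf6, a zinc finger factor, had 9.14 and 9.41. Of the 106 genes with at least 5 members beside them, Adgrl2 had the most, 15, with 44.7 FPKM in NotoPdiff and 49.8 in MPdiff. Zfp608 had 13 members with 13.5 and 15.3 FPKM, and Sall1, a zinc finger repressor, had 10 with 49.6 and 58.3.

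The genes on either side of the members were 2979, of which 2867 (96.2%) were found in the FPKM table. FPKM values come from 1 library per condition and were compared after adding 1, and a gene was called where the ratio reached 3. In bulk libraries, fewer cells of a type and less RNA per cell cannot be told apart. Of the flanking genes, 111 were at least 3-fold higher in NotoPdiff than in MPdiff, or 3.87% (3.22 to 4.64%), where 1.76% of all 20404 matched protein-coding genes were. In the other direction, 36 were at least 3-fold lower, or 1.26% (0.908 to 1.73%), where 0.461% of all genes were. In embryonic E9.5 NotoPs against MPs, 133 flanking genes were higher (4.64%) and 60 lower (2.09%), where 2.84% and 1.15% of all genes were. At 1 FPKM or more in NotoPdiff stood 59.2% of flanking genes (57.3 to 60.9%) and 55.5% of all. Both directions lay above the background, with intervals that exclude it, and the median log2 ratio was 0.00 in flanking and in all genes.

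Genes that flanked no member were higher in 1.42% of cases and lower in 0.331%. Genes that flanked Foxa2-only peaks between genes, 5657 of them, were higher in 3.13% (2.71 to 3.62%) and lower in 0.990% (0.763 to 1.28%), intervals that overlapped those of the members' genes. Genes that bordered a shared T peak were higher in 5.64% (4.34 to 7.30%). Among the members' genes, those that also bordered a shared T peak were higher in 5.50% (3.88 to 7.75%), and those that bordered members only in 3.49% (2.82 to 4.31%). Of genes beside grouped members 45.5% (41.6 to 49.4%) stood at 1 FPKM or more, and of genes beside ungrouped members 61.9% (60.0 to 63.8%). Of the former, 25 of 627 were 3-fold higher in NotoPdiff (3.99%), close to the 4.01% of the latter. Of the same 627 genes 1 was 3-fold lower, or 0.159%. Its interval (0.0282 to 0.898%) includes the 0.461% of all genes.

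**Figure D4:**
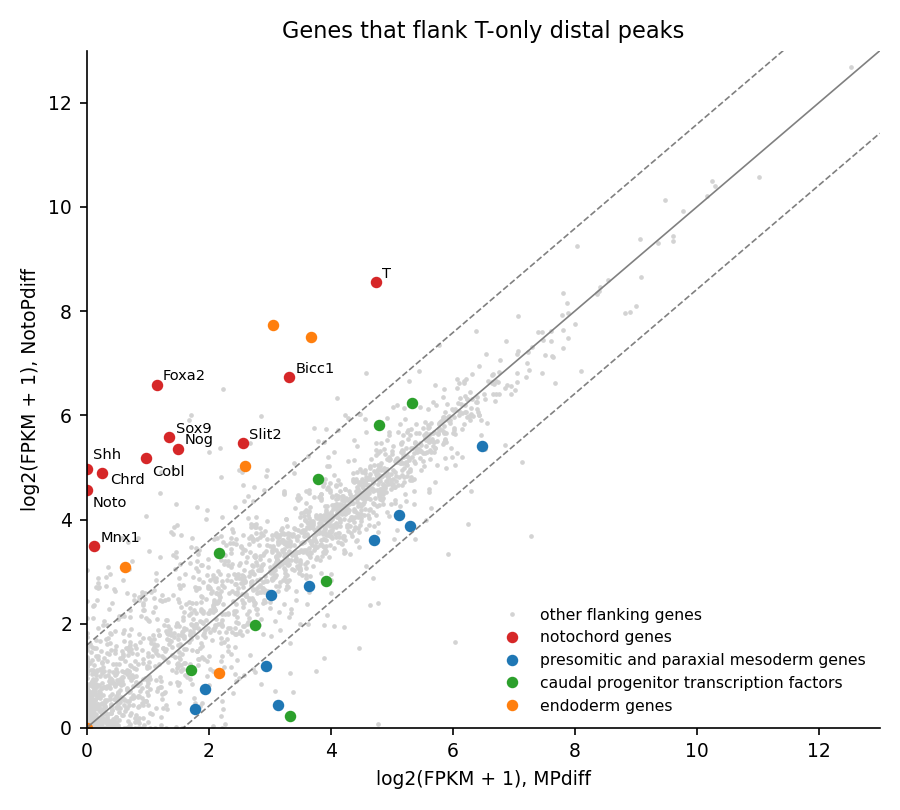
Expression of the genes that flank members, as log2(FPKM + 1) in NotoPdiff (vertical) against MPdiff (horizontal), 1 library each; the solid line marks equal values, dashed lines a 3-fold ratio, and colours the gene lists. All 11 notochord genes (red, named) lie above the upper dashed line, and the presomitic genes (blue) lie below the solid line.

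Notochord genes stood beside members with high expression in NotoPdiff. Of 21 listed notochord genes, 11 flanked a member. All 11 were at least 3-fold higher in NotoPdiff, where 1.76% of all protein-coding genes were. The list as a whole had 18 of 21 higher, so the members' genes follow the list, and the list was chosen with such results known. The median log2 ratio was 4.22 for the 11 and 3.42 for the 21. T itself had 1 member, at chr17:8447727-8448218, with its summit 13.5 kb downstream of the 5' end and a fold of 9.41. Noto, the homeobox gene of the node and notochord, had 1 member at chr6:85399744-85400246, 23.9 kb upstream, with a fold of 11.3. Noto had 22.5 FPKM in NotoPdiff and was listed at 0 in MPdiff, and had 152 and 164 FPKM in E8.5 and E9.5 NotoPs. Embryonic MPs were listed at 0 for Noto at both stages. Both embryonic cell types were sorted by the Noto reporter, so this contrast follows from the sorting.

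Foxa2 had 5 members, 1 of them 13.5 kb upstream at chr2:148060149-148060701 with a fold of 18.7, and the other 4 downstream at 9.97 to 273 kb with folds of 4.68 to 9.71. Its 95.5 FPKM in NotoPdiff include RNA from the transgene, which shares its coding sequence. In E9.5 embryos Foxa2 had 45.6 FPKM in NotoPs and 0.860 in MPs, which were sorted by the Foxa2 reporter. Shh, the Hedgehog ligand of the notochord, had 4 members, all upstream at 127 to 665 kb, with folds of 4.94 to 11.8. Shh had 30.2 FPKM in NotoPdiff and was listed at 0 in MPdiff and NMPdiff, and it had 161 and 178 in embryonic NotoPs of E8.5 and E9.5 and 468 and 607 in trunk notochord. The members thus stood in the long gene-poor flank upstream of Shh and none on its other side.

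Sox9, a regulator of cartilage and notochord sheath genes, had the most members of the notochord list, 9, spread from 921 kb upstream to 380 kb downstream of its 5' end. The strongest, 780 kb upstream at chr11:112002041-112002655, had a fold of 21.4. Sox9 had 47.1 FPKM in NotoPdiff, 1.56 in MPdiff and 1.69 in NMPdiff, and trunk notochord had 74.8 at E8.5 and 92.9 at E9.5. Cobl, an actin nucleator, had 4 members, of which 2 belonged to sequence group 2. These lay 25.8 kb and 1674 kb upstream, with folds of 22.9 and 12.6. Cobl had 35.4 FPKM in NotoPdiff and 0.958 in MPdiff. Chrd, a Bmp antagonist, had 2 members downstream, 1 of them in group 1, and Slit2, a guidance ligand, had 3, all upstream at 1212 to 1259 kb. Nog, Mnx1 and Bicc1 had 1 each, with folds of 4.06, 5.93 and 5.66. Of the 11 genes, Nog had the weakest nearby member, and its level was 40.1 FPKM in NotoPdiff against 1.83 in MPdiff.

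**Figure D5:**
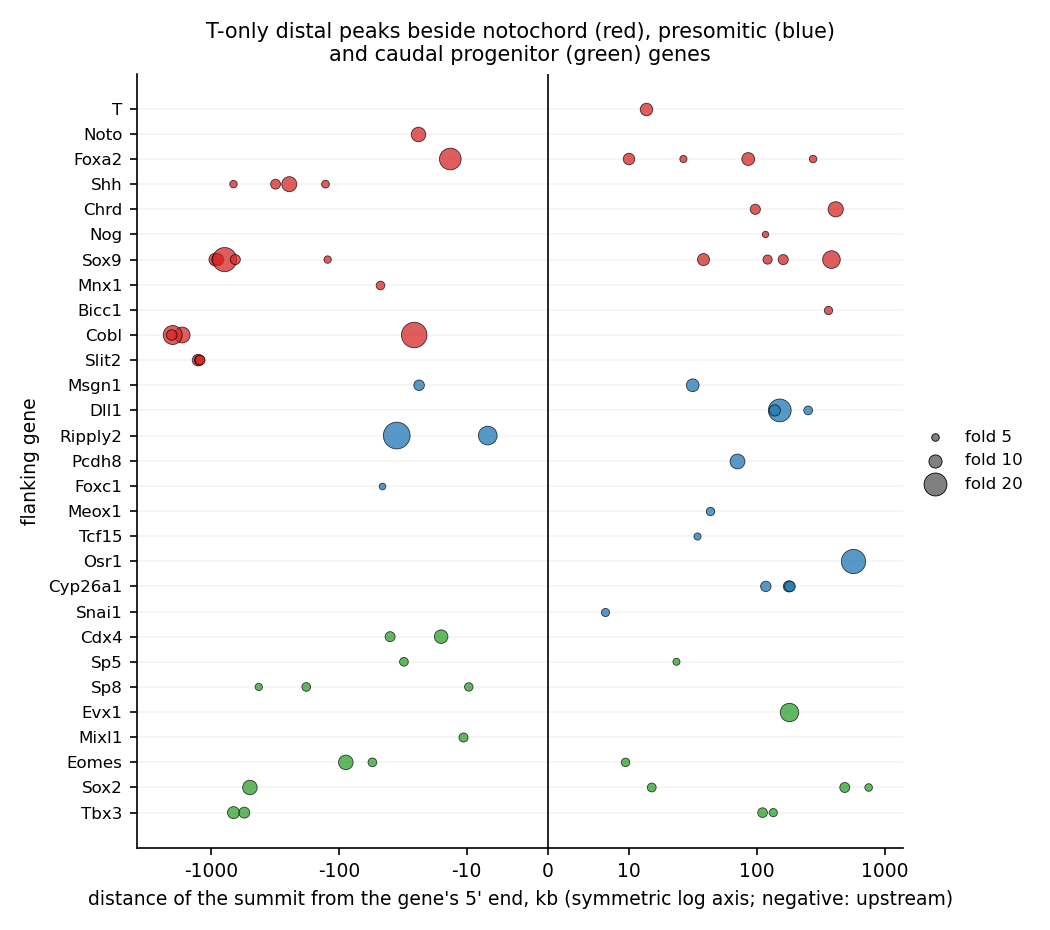
Position of members beside notochord (red), presomitic (blue) and caudal progenitor (green) genes: distance of the summit from the gene's 5' end in kb on a symmetric log axis (negative, upstream), with the area of a point rising with fold enrichment. Sox9 has 9 members on both sides, Shh has 4 on 1 side, and the largest point is the member 35.3 kb upstream of Ripply2, at fold 24.3.

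Presomitic and paraxial mesoderm genes also stood beside members, among them the strongest of the notochord, presomitic and caudal lists. Of 18 listed genes 10 flanked a member, where 13.6% of all protein-coding genes did. Of these 10, 0 were 3-fold higher and 2 were 3-fold lower in NotoPdiff, where 4 of the 18 were lower. Over all protein-coding genes 1.76% were higher and 0.461% lower. A count of 0 higher among 10 genes is therefore no result about them. Ripply2, a transcriptional corepressor needed for somite boundaries to form, had members 35.3 and 6.86 kb upstream at folds of 24.3 and 15.6. Its expression was low, 0.291 FPKM in NotoPdiff and 2.42 in MPdiff, and 6.38 in E9.5 MPs. Dll1, a Notch ligand, had 3 members 137 to 250 kb downstream, the strongest at fold 19.9, and had 41.5 FPKM in NotoPdiff and 88.2 in MPdiff. Osr1, a factor of intermediate mesoderm, had 1 member 558 kb downstream at fold 21.5 and was 3-fold lower, with 0.363 against 7.78 FPKM. Pcdh8, a protocadherin of forming somites, had 1 member at fold 11.6 and was also lower, 1.29 against 6.67 FPKM. Msgn1 and Cyp26a1 had 2 and 3 members with 11.2 and 4.87 FPKM in NotoPdiff and 25.1 and 7.15 in MPdiff. Foxc1, Meox1, Tcf15 and Snai1 had 1 member each, with folds of 4.25 to 5.73. The 10 genes had a median log2 ratio of -1.14, the same as the whole list. The FPKM values are of sorted cells, and the T ChIP was made on the whole culture.

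Of 13 caudal progenitor transcription factors 8 flanked a member, with a median log2 ratio of 0.16. Tbx3, a T-box repressor, was the 1 flanking gene 3-fold lower, where 2 of the 13 and 0.461% of all protein-coding genes were. It had 0.178 FPKM in NotoPdiff and 9.10 in MPdiff, and 4 members with folds of 5.58 to 8.94. Evx1, a homeobox gene of the posterior streak, had the strongest member of the list, 177 kb downstream at fold 15.3. Cdx4 had 2 members 39.7 and 15.9 kb upstream, Eomes 3, Sox2 4, Sp8 3, Sp5 2 and Mixl1 1. The Sox2 members included 1 that lay 0.341 kb from a Foxa2 peak. Sp5, a Wnt-induced repressor, had 74.8 FPKM in NotoPdiff and 39.1 in MPdiff, and Mixl1 had 55.3 and 26.8, both short of 3-fold.

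In the signalling lists, calls stand beside 1.76% of all protein-coding genes higher and 0.461% lower in NotoPdiff. A count of 0 in so short a list is therefore no result about it. Of 18 Fgf pathway genes 13 flanked a member, and 1, Fgf10, was lower, with 0.799 FPKM in NotoPdiff and 6.26 in MPdiff. Dusp6, a phosphatase induced by Fgf signalling, had 3 members and 23.1 against 14.3 FPKM, and Spry2, an Fgf feedback inhibitor, had 4 and 17.4 against 24.0. Of 18 Wnt pathway genes 8 flanked a member and 0 passed the limit in either direction. Of these, Rspo3 had 6 members with 56.5 FPKM in NotoPdiff and 93.8 in MPdiff. Lef1, a transcriptional effector of the pathway, had 2 members with 97.4 and 205. Of 21 Bmp and Nodal pathway genes 8 flanked a member, and in the whole list 4 were higher and 3 lower. Bmp7 (43.4 against 5.41 FPKM, 1 member) and Id4 (4.52 against 0.707, 6 members) were higher, and Id2 (2.14 against 64.6, 2 members) was lower. Id2 and Id4 both encode inhibitors of basic helix-loop-helix factors, and they moved in opposite directions.

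For cell types that the culture could also hold, 10 of 18 neural genes flanked a member and 0 passed the limit. With 1.76% of all protein-coding genes higher and 0.461% lower, a count of 0 in this or another short list is no result about it. Of 13 endoderm genes 6 flanked a member and 4 of these, Sox17, Epcam, Krt8 and Krt18, were higher in NotoPdiff, where 8 of the 13 were. Krt18, a keratin of simple epithelia and of the notochord, had 212 FPKM against 7.33 and 1 member 11.4 kb upstream at fold 14.8. Sox17, the endoderm factor, had 7.46 against 0.545 FPKM in culture and was listed at 0 in E9.5 NotoPs and MPs. The part of endoderm-like cells in these values was not tested. Of 11 pluripotency genes 5, and of 10 housekeeping genes 1 (Eef1a1), flanked a member, with 0 past the limit. Over all protein-coding genes, 13.6% flanked a member. The share was 10.0% in the housekeeping list and higher in all 9 other lists, from 38.1% (Bmp and Nodal) to 72.2% (Fgf), with 52.4% in the notochord list, 46.2% in the endoderm list and 45.5% in the pluripotency list. Developmental genes often border long intergenic intervals, and interval length was not held equal in these shares.

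The flanking genes with the highest ratios outside the notochord list were Krt18, Arl4a (a small GTPase, 63.6 against 2.26 FPKM, 4 members), Epha2 (an ephrin receptor of the node and notochord, 90.3 against 3.73, 3 members) and Mt2 (a metallothionein, 59.0 against 2.19, 1 member). The strongest member beside Epha2 lay 31.0 kb upstream at fold 21.0. In E9.5 embryos Epha2 had 58.8 FPKM in NotoPs and 4.65 in MPs, and Arl4a 19.1 and 3.72, so both had the same direction there. Trunk notochord at E8.5 and E9.5 had only 7.27 and 1.21 of Epha2, and 26.2 and 13.5 of Arl4a. NMPdiff had 70.2 of Epha2 and 4.28 of Arl4a. Mt2 was listed at 0 in E9.5 NotoPs and had 0.822 in MPs, while at E8.5 NotoPs had 6.78 and MPs were listed at 0. Trunk notochord had 71.2 of Mt2 at E8.5 and 34.2 at E9.5. In culture NMPdiff had 57.1 of Mt2, close to NotoPdiff. The lowest ratios belonged to Hand1, a factor of lateral mesoderm (0.0513 against 26.4 FPKM, 2 members), Id2, Crabp1, a retinoic acid binding protein (11.9 against 154, 1 member), Tbx3, Hs3st3b1, Osr1, Pglyrp3, Lhfp, Dact1 and Nrp1. Dact1, a modulator of Wnt signalling, had 9.12 against 59.5 FPKM in culture, and 42.7 against 49.2 in E9.5 embryos, where the values were close. Hs3st3b1 (7.40 against 4.04) and Nrp1 (3.59 against 0.850) were higher in E9.5 NotoPs than in MPs, and the rest of the 10 genes were lower. Trunk notochord had 24.5 of Nrp1 at E8.5 and 18.9 at E9.5. Members beside these 10 genes were of ordinary strength, with highest folds of 4.51 to 13.5 except for 21.5 beside Osr1.

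Outside protein-coding genes, 375 members (15.2%, 13.9 to 16.7%) lay inside another annotated gene, most often a lincRNA (245, or 9.96%). The strongest of all, beside Dhx35 and Gm826, lay inside the noncoding gene Gm14223. Pseudogene bodies held few, with 7 members in processed pseudogenes.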

How the data were processed

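T and Foxa2 were mapped by ChIP-seq in whole NotoPdiff cultures, and RNA-seq was made from sorted cells, with 1 library per condition. The authors aligned ChIP read pairs uniquely to mm10 with Bowtie 1.3.1, removed duplicate fragments and called peaks for each library with MACS3 3.0.0b1. The deposited peak lists give a fold enrichment ratio over local background, a -log10 p-value, a -log10 q-value and a score for each of 6875 T and 22684 Foxa2 peaks. The smallest -log10 q of a T peak was 1.01. No control library for the ChIP is named in the sources used here, and read depth is not given in the peak lists, so depth is unknown. The authors made the FPKM values of 23983 genes and 9 libraries with TopHat2 2.1.1 and Cufflinks 2.2.1 after deduplication by molecular identifiers. The study lists deduplicated read numbers for the embryonic libraries, which differ in depth and in cells sorted, with the fewest reads and cells for E8.5 MPs. Depth of the cultured libraries is not given in the sources used here. Embryonic and cultured libraries were sequenced on different instruments and were compared only within each set. The number of unused per-sample columns is 0.

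Members, distances and flanking genes (the nearest protein-coding gene on each side) were computed from the peak lists and GENCODE vM21 with Python 3.11.15, numpy 2.4.6, pandas 2.3.3 and scipy 1.17.1. Of 21924 protein-coding symbols 20404 matched a row of the FPKM table, 750 of them through RefSeq synonyms. Density used sequence outside gaps, gene bodies and the 5 kb around 5' ends. Motifs were counted on both strands within 50 bp of the summit. For sequence groups, 301 bp windows were aligned to each other with BLAST+ 2.17.0 (word size 11). The window with the most alignments of at least 100 bits took its partners, these were removed, and the step was repeated. Genome copies had an E value of at most 1e-10 and at least 150 aligned bp. Shares carry 95% Wilson intervals, densities exact Poisson intervals and medians order-statistic intervals. No test across conditions was made, since 1 library per condition allows none. Membership, distances, eligible sequence, clusters, the left flanking gene, the count of GGTGTGA, sequence grouping and fold calls were tested on simulated data. Other computations, among them facing T sites, word counts, genome copies and summit positions in the copies, were not. The members and gene lists were chosen with earlier results of these data known. Named genes were those beside the 10 members of highest fold, beside the 5 leading clusters and with the most members, the 10 highest and 10 lowest ratios, and those of the notochord, presomitic and caudal lists. Members of the other lists are named as well, and the genes of some dense intervals were named after their values were seen.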

Additional observations from a re-analysis of the deposited data

How the results depend on the processing

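Under the alternative settings 75 values stayed within the main value's 95% interval (counts within 1.5 times) and 26 moved. Reversal was not scored, since most values are shares, medians or counts without a sign. With -log10 q of at least 3 the median fold was 8.04. With genes of every type the median distance was 24636 bp and the clustered share 4.98%, and no density ratio could be had because no member lay beyond 500 kb. With no Foxa2 peak within 1000 bp, 19.04% had 1 within 10 kb. Beyond 10000 bp from a 5' end the median distance was 91290 bp. With peak midpoints the share with GGTGTGA was 8.45% and the forkhead share 12.9%, with 25 bp windows 7.19% and 6.05%, and with 100 bp windows 13.25% and 22.6%. Cluster gaps of 5 and 25 kb gave 2.76% and 14.2%, and a Foxa2 window of 50 kb gave 61.6%. Minimums of 5 and 0.1 FPKM gave 43.5% and 72.8% of flanking genes. With a pseudocount of 0.1 FPKM, 10.9% were 3-fold higher and 3.73% lower (all genes 7.04% and 2.61%), and among genes at 5 FPKM or more 6.94% and 2.21% (all 3.10% and 0.951%). Counting the nearer gene only gave 61.9% at 1 FPKM and 4.72% higher.

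Chosen after seeing the data, leaving out the sequence groups gave a median fold of 7.45, a Foxa2 peak within 10 kb in 23.5% and 61.9% of flanking genes at 1 FPKM. Windows of 250 bp on each side put 19.5% of members in groups, and the other 4 settings of the grouping stayed within the interval. No paired analysis was possible because each group has 1 library. Without replicates or read counts, the spread of any value between cultures is unknown. Copies of repeats that reads cannot place uniquely are missed by the peak lists. FPKM values near 0 carry no stated precision, and the nearest gene need not be the regulated one.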
